A study of Mus musculus with 6 samples.

Results

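Interleukins are secreted signalling proteins of blood and immune cells, and interleukin receptors are the chains on target cells that bind them. The genes described here were the protein-coding genes of the RefSeq table of the mouse build GRCm38 whose symbol begins with Il and a digit, without the receptor genes Il3ra, Il6ra, Il6st and Il7r. Of 21887 protein-coding genes, 83 matched the pattern, 4 of these were left out, and 79 remained. For each gene, the bases under deposited 5hmC peaks (the called length) and the peaks themselves were counted over the gene and 5 kb at both ends, in each library.

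5-hydroxymethylcytosine (5hmC) is made by TET enzymes, which oxidise 5-methylcytosine, mostly at CG dinucleotides. It was mapped by immunoprecipitating sonicated DNA of 200 to 500 bp with an antibody to 5hmC and sequencing it. The comparison asks where 5hmC is found once Tet2, one of these enzymes, is lost from cells driven by AML1-ETO, a leukaemia fusion protein.

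KO libraries (n = 2) came from cultures given 200 nM 4-hydroxytamoxifen for 2 passages (4 days), and flox libraries (n = 2) from cultures given ethanol instead. Both groups were primary Kit-enriched bone marrow cells of C57BL/6 background from Tet2 fl/fl;CreER mice, in which Cre acts once 4-hydroxytamoxifen is present. All had received AML1-ETO with a GFP marker from the retroviral vector MigR1, had been replated in methylcellulose, and had then grown in suspension with SCF and with IL-3 and IL-6 at 10 ng/ml each. Cells with the surface markers of immature myeloid cells (CD16/32+ and negative for CD11b and Gr1, with GFP+ as sign of the vector) were sorted at passage 5, so each library is a bulk sample of cells grown and selected in culture. In such a sample a smaller share of cells with 5hmC and less 5hmC per cell cannot be told apart. Only KO cultures received the drug, so loss of Tet2, active Cre and the drug itself cannot be told apart. The labels do not say whether the replicates were separate cultures, and p-values therefore measure only the spread between these 4 libraries.

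The lists held 116539 and 122101 peaks in KO libraries 1 and 2, against 118727 and 118522 in flox libraries 1 and 2, over 110.30 to 113.35 Mb. The reads behind each list are unknown. The authors give each peak a score, -10 times the log10 of its p-value, and the lowest score in every list was 50. Peaks of 5hmC do not measure RNA, so neither the sorted cell type nor the activity of a cytokine gene can be read from them. Among marker genes of other cells, 2 of 5 tested T and NK cell genes, 5 of 7 B cell genes, 3 of 3 mast, basophil and erythroid genes and 4 of 8 mature myeloid genes had a called length above the flox value in KO libraries. The same held for 1 of 7 tested progenitor markers, and for 6432 of all 14162 tested genes. The part of cell mixture in the values below was not tested.

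Interleukin signalling starts when a ligand joins 2 or more receptor chains. Ligands of the type I cytokine family use receptors that carry JAK kinases and act through STAT factors, while IL-1 and IL-17 family receptors act through adaptor proteins and NF-kappaB. IL-3, IL-5 and the IL-1 family are known for their effects on myeloid progenitors, mast cells and eosinophils. Decoy receptors and antagonists, such as those encoded by Il1r2 and Il1rn, bind a ligand or a receptor without passing a signal on.

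Not all of these genes encode interleukins or their receptors. Il4i1 encodes an amino acid oxidase and overlaps Il4i1b, Il16 encodes a cytokine unrelated to the other families, and Il18bp encodes a soluble binding protein. Il1rapl1 and Il1rapl2 are IL-1 receptor relatives known from neurons. The sequences of Il11ra1 and Il11ra2 are nearly identical, so their values are uncertain.

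RefSeq promoter sequences on GRCm38.p6, from 250 bases before to 50 bases after a gene's start, were matched for 62 of the 79 genes (77 windows). Those shown are the windows under peaks in 3 or 4 libraries, followed by Il6, the gene of a cytokine in the medium, whose interval had no peak in any library. They are written 5′ to 3′ in the gene's direction, with each CG dinucleotide, the usual site of 5hmC, in capitals. The motif CG reads the same on both strands.

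Il11 (chr7:4778092-4778391, minus strand): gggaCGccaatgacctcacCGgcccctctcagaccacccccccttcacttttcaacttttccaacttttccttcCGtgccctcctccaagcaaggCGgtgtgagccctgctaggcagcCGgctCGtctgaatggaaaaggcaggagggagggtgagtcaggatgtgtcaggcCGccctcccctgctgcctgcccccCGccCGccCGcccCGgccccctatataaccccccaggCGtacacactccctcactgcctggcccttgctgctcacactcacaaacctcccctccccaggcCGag

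Il9r (chr11:32200230-32200529, minus strand): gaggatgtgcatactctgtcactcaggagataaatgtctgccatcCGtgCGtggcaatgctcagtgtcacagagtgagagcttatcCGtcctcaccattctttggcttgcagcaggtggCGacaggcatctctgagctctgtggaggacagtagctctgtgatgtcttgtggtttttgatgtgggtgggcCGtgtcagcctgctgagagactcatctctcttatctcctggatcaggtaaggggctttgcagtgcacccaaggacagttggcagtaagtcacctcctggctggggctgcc

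Il11ra1 (chr4:41760193-41760492, plus strand): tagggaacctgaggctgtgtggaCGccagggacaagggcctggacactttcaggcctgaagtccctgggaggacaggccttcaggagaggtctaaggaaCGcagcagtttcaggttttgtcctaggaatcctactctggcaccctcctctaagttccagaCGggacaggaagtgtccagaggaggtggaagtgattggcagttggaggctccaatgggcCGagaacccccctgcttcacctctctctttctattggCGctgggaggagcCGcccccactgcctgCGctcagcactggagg

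Il18r1 (chr1:40465756-40466055, plus strand): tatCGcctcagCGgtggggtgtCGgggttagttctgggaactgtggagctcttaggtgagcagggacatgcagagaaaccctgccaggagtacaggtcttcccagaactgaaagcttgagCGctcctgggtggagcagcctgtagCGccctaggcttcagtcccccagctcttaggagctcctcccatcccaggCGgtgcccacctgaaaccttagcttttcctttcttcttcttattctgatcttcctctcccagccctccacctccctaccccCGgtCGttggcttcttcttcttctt

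Il4i1b (chr7:44816120-44816419, plus strand): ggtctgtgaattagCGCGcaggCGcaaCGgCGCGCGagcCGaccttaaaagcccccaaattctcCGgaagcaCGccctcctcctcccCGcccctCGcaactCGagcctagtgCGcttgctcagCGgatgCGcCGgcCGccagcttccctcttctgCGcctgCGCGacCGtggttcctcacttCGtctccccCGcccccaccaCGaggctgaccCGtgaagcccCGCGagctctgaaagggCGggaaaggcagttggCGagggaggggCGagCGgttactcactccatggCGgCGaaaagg

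Il6 (chr5:30012864-30013163, plus strand): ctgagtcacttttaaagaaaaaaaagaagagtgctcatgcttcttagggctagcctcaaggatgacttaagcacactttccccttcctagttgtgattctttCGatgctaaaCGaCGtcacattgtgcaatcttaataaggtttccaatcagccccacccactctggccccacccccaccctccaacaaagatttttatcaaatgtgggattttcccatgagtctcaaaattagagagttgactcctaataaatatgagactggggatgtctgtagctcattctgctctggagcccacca

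The 6 windows held 13 CG dinucleotides for Il11, 5 for Il9r, 7 for Il11ra1, 8 for Il18r1, 34 for Il4i1b and 3 for Il6. Over all windows of these genes the median was 4, against 13 over the 21263 windows of all protein-coding genes. At least 1 CG stood in 98.7% of the interleukin windows and in 95.4% of all windows. Il11 encodes a ligand that signals through gp130. Of the windows shown, its window was the one covered in full or to the last base in every library. It had 300 and 300 bases in KO libraries against 300 and 299 in flox libraries, while another window of Il11 had no peak in any library. The window of Il9r, the IL-9 receptor gene, was touched in every library, with 300 and 25 bases in KO libraries against 300 and 75 in flox libraries. In the window shown for Il11ra1, an IL-11 receptor chain, peaks covered 300 and 300 bases in KO libraries against 118 and 0 in flox libraries. Another window of Il11ra1 had no peak in any library. In its window shown, Il18r1, the IL-18 binding chain, had 0 and 300 bases in KO libraries against 300 and 300 in flox libraries. Another window of Il18r1 had 0 and 61 bases in KO libraries against 0 and 300 in flox libraries. A further one had 0 and 0 against 0 and 266. Il4i1b had 300 and 148 bases in KO libraries against 128 and 0 in flox libraries, from a region that also overlaps Atf5 and Nup62. These windows do not share a direction between the genotypes.

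Few start regions lay under peaks. Of the 77 windows, 2 (2.60%) were under a peak in all 4 libraries, against 5.28% of all windows, and 11 (14.3%) in at least 1 library, against 14.0% of all windows. These 11 windows belonged to 8 genes. In single libraries 4 and 6 of the 77 windows were touched in KO libraries, against 6 and 8 in flox libraries. Over all windows the shares were 8.66% and 9.42% in KO libraries against 9.80% and 8.98% in flox libraries, where the groups overlap.

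Most of the 79 genes carried 5hmC somewhere. A peak lay in the interval of 70 genes, and 9 (11.4%) had none in any library, against 22.9% of all protein-coding genes. The 9 were Il6, the ligand genes Il17a and Il1f8, the receptor genes Il17rb, Il17rd, Il11ra2 and Il2rg, and Il18bp and Il4i1. Il2rg encodes the common gamma chain, which IL-2, IL-4, IL-7, IL-9, IL-15 and IL-21 share, and Il17rb the chain that binds IL-25. Il3, whose protein was also in the medium, had 0 and 0 bp in KO libraries against 0 and 1189 bp in flox libraries, from 1 peak upstream of the gene. The median gene of the 79 had 6.34% of its interval under peaks, against 3.23% for all protein-coding genes.

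The densest was Il27, which encodes the p28 subunit of IL-27, a regulator of T cells. Peaks covered 5037 and 4709 bp of its 16027 bp interval in KO libraries, against 6331 and 6188 bp in flox libraries. Both KO libraries were below both flox libraries, and the mean share under peaks was 30.4% in KO and 39.1% in flox libraries, at the 99.7th percentile of tested genes over all 4. The log2 difference (KO minus flox) was -0.32 (SE 0.16). Part of this signal belongs to a region of 3045 bp beside Il27, chr7:126585067-126588111, that overlaps Cln3 and Apobr. Next in density came Il4, the T helper 2 cytokine gene, with 3015 and 1760 bp in KO libraries against 1864 and 5074 bp in flox libraries. KO library 1 lay between the flox libraries, so the groups overlapped.

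**Figure D1:**
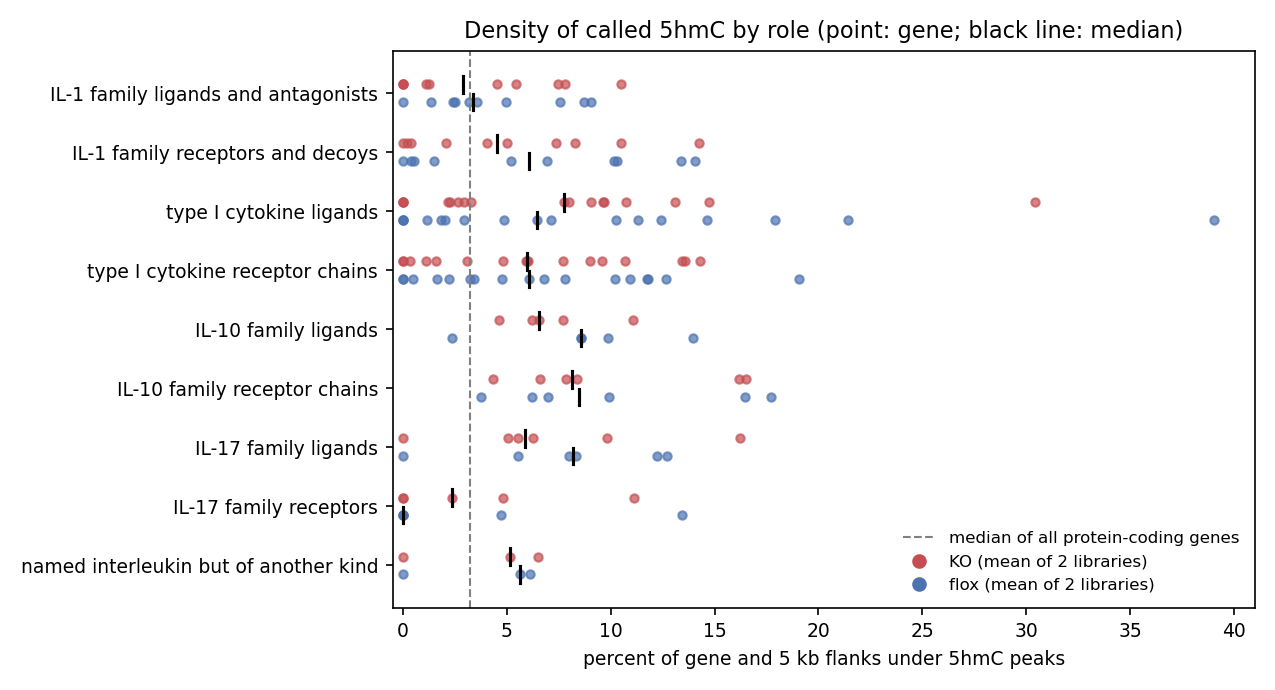
The percent of each gene and its 5 kb flanks under 5hmC peaks is shown on the horizontal axis for families of interleukin genes, one point per gene and genotype (mean of 2 libraries, KO above flox), with black lines for medians. The dashed line marks the median of all protein-coding genes, 3.23%, and the point farthest right is Il27, at 30.4% in KO and 39.1% in flox libraries.

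Over all intervals together (74 separate intervals, 5339.501 kb), peaks covered 177.4 and 167.2 kb in KO libraries against 195.2 and 185.7 kb in flox libraries. Both KO libraries were below both flox libraries, with means of 172.3 ± 7.20 kb in KO and 190.4 ± 6.70 kb in flox libraries (SD, n = 2 each), or 3.23% and 3.57% of the summed length. The log2 ratio of the sums, scaled to the same called total per library, was -0.13. It was -0.01 for peaks scored 100 or more and 0.01 for the 50000 highest scored peaks of each list.

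Gene by gene, no difference passed the test. Called length was scaled so that every library had an equal sum, and log2(bp + 500) was compared with limma over the 14162 genes whose mean reached 500 bp. Of the 79 genes, 62 (78.5%) entered it, against 64.7% of all genes. None of the 62 had an adjusted p under 0.05, nor did any of the 14162 (0.00%), with the lowest adjusted p of limma at 0.773. At an unadjusted p under 0.05, 3 of the 62 were listed, all lower in KO libraries, where 869 of all tested genes (6.14%) were, 4.30% lower and 1.84% higher in KO libraries. The log2 difference was below 0 for 37 of the 62 genes (59.7%) and above 0 for 25, where 54.6% of all tested genes were below 0. Among peaks scored 100 or more it was below 0 for 22 of 45 genes, with the 50000 highest scored peaks for 20 of 42, and within gene bodies alone for 23 of 47. The median difference was -0.07, against -0.04 for all tested genes, and without KO library 1 it was -0.16.

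Both KO libraries were below both flox libraries for 17 of the 62 genes (27.4%), where 20.7% of all tested genes had this order. They were above both for 8 genes (12.9%), where 14.6% of all tested genes had that order. The differences ran from -1.27 (SE 0.60) for Il5ra, the IL-5 receptor alpha chain, to 1.01 (SE 0.62) for Il11ra1. Both extremes had 1 library at 0. Il5ra had 1073 and 0 bp in KO libraries against 1622 and 1697 bp in flox libraries, and Il11ra1 had 1309 and 983 bp in KO libraries against 844 and 0 bp in flox libraries.

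**Figure D2:**
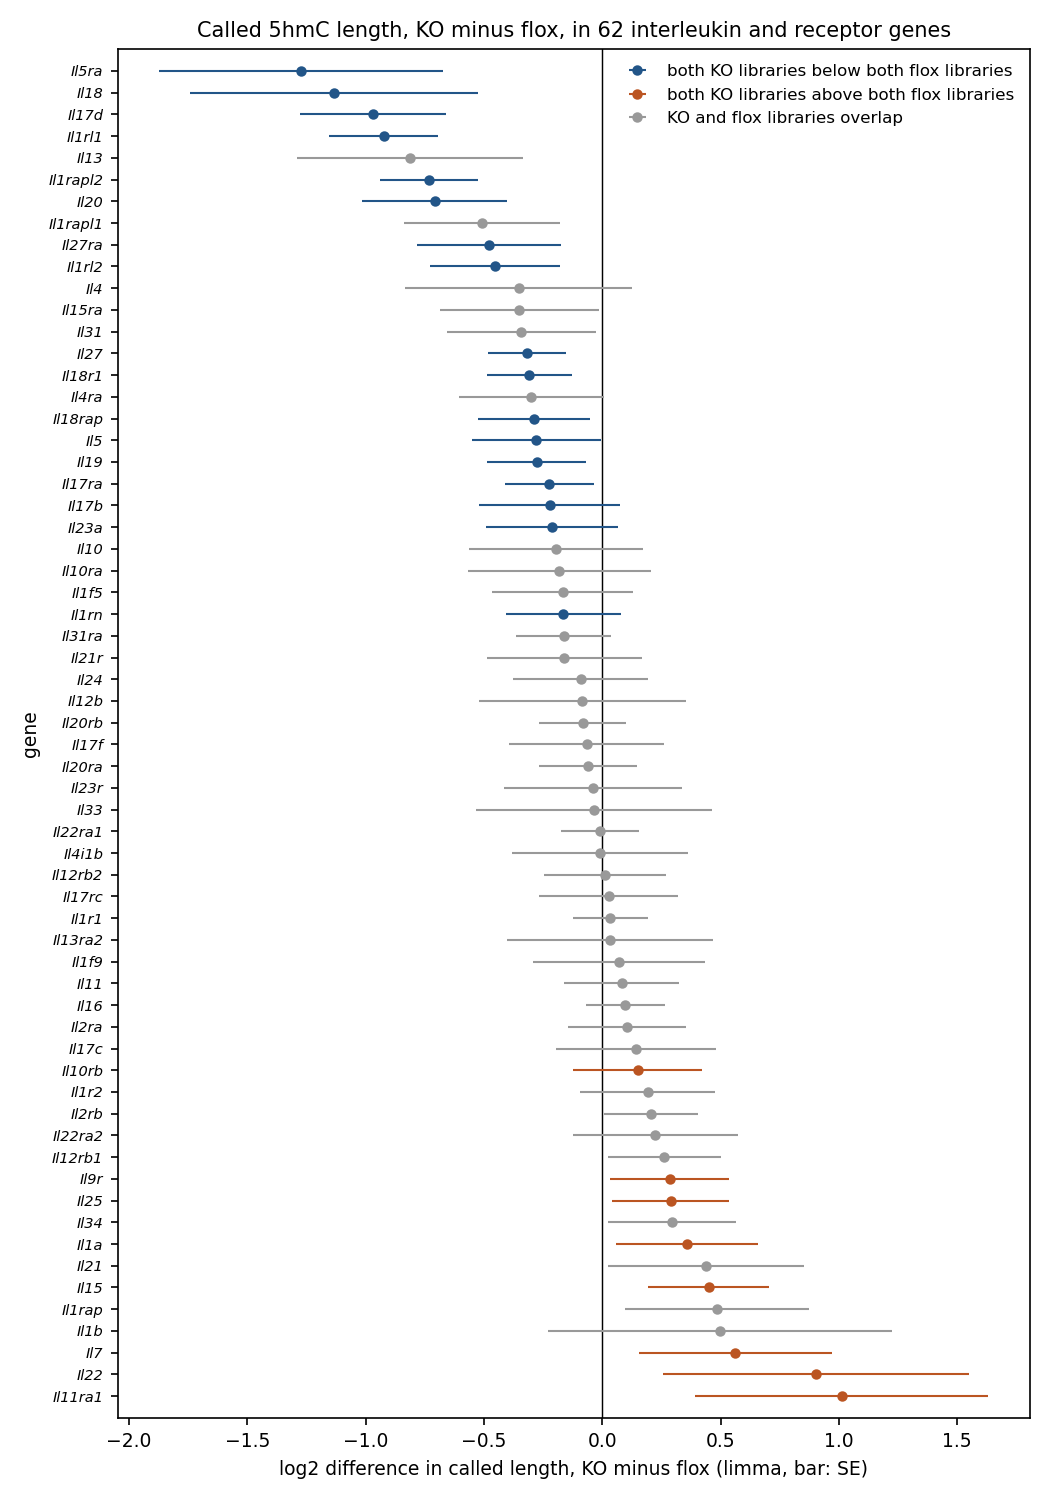
Log2 differences in called length, KO minus flox, with their standard errors from limma, are shown for the 62 tested interleukin and receptor genes, colored by whether the libraries of the groups overlap. The values run from -1.27 for Il5ra to 1.01 for Il11ra1, with 37 below 0 and 25 above, and none had an adjusted p under 0.05.

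Among the 38 ligand and antagonist genes, 29 were tested, with 18 lower and 11 higher in KO libraries by sign and a median difference of -0.09. Of the 5 IL-10 family ligands, 4 were lower and 1 higher by sign. Il19 had 2614 and 2424 bp in KO libraries against 3103 and 3272 bp in flox libraries, and Il20 had 745 and 583 bp in KO libraries against 1313 and 1512 bp in flox libraries, so both KO libraries were below both flox libraries for these neighbouring genes of skin and epithelial cytokines. The groups overlapped for Il24 and Il10 of the same cluster, and over its 152.9 kb, with 11839 and 10727 bp in KO libraries against 13689 and 10388 bp in flox libraries. Il22, which acts on epithelia, had 825 and 1096 bp in KO libraries against 731 and 0 bp in flox libraries, the opposite order.

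Il17d, a ligand of the IL-17 family, was one of the 3 genes with an unadjusted p under 0.05. Its called length was 2055 and 1078 bp in KO libraries against 3403 and 3532 bp in flox libraries. Both KO libraries were below both flox libraries, with a log2 difference of -0.97 (SE 0.31, adjusted p = 0.773 with limma). One region near the left end of the gene, chr14:57525530-57526672, was called in every library, with scores of 251.62 and 364.94 in KO libraries against 447.85 and 415.68 in flox libraries. The other 4 regions of the interval had scores of 53.49 to 124.51, and 3 of them were called in 1 flox library each. The sign turned with peaks scored 100 or more, to a difference of 0.31, and with the 50000 highest scored peaks, to 0.33, while without KO library 2 it was -0.62.

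The T helper 2 cluster on chromosome 11 holds Il4, Il13 and Il5, ligands of allergic inflammation, and IL-5 drives eosinophils. Over its 122.6 kb, peaks covered 9144 and 6742 bp in KO libraries against 11685 and 11758 bp in flox libraries, and the groups did not overlap. These sums include peaks in the sequence between the gene intervals. Il13 had 543 and 2029 bp in KO libraries against 2035 and 2753 bp in flox libraries, with KO library 2 close to flox library 1. Il5 had 1029 and 1190 bp in KO libraries against 1474 and 1456 bp in flox libraries, a log2 difference of -0.28 (SE 0.27). A region inside Il5, chr11:53721265-53721860, had peaks of both flox libraries, with scores of 87.88 and 50.67, and of no KO library. Beside it, a region downstream of Il5 was called in all 4 libraries. With 20 kb at both ends the difference for Il5 was 0.11.

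The IL-1 ligand cluster on chromosome 2, from Il1f8 to Il1rn, spans 208.3 kb and holds IL-36 ligand genes and the gene of the IL-1 receptor antagonist. Peaks covered 6140 and 5771 bp there in KO libraries against 8671 and 7728 bp in flox libraries, without overlap of the groups. Il1f6, an IL-36 ligand gene, had 0 and 0 bp in KO libraries against 595 and 415 bp in flox libraries, below the mean needed for the test. Its region, chr2:24216766-24217360, had scores of 58.30 and 108.13 in flox libraries. Il1rn had 1764 and 2076 bp in KO libraries against 2360 and 2103 bp in flox libraries, so KO library 2 and flox library 2 nearly met. In a separate pair on the same chromosome, Il1a had 2675 and 1650 bp in KO libraries against 1590 and 1524 bp in flox libraries, while Il1b had 649 and 845 bp in KO libraries against 0 and 1049 bp in flox libraries. The genes of these IL-1 receptor agonists thus had no common order.

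Of the ligand genes with more called length in both KO libraries, Il7, Il15 and Il25 were described by region. Il7, needed for lymphocyte development, had 751 and 1568 bp in KO libraries against 585 and 606 bp in flox libraries, a log2 difference of 0.56 (SE 0.41) that was 0.20 without KO library 2. It held a region called in both KO libraries only, chr3:7605915-7606927 inside the gene, with scores of 65.15 and 71.51. It also held one called in both flox libraries only, chr3:7615799-7616433 beside the gene, with scores of 65.06 and 91.27. No region of Il7 was called in both genotypes.

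Il15, a cytokine of NK and memory T cells, had 2521 and 2258 bp in KO libraries against 1455 and 1820 bp in flox libraries. The groups did not overlap, and the log2 difference was 0.45 (SE 0.26). The region called in all 4 libraries, chr8:82352632-82353871, had scores of 321.87 and 242.41 in KO libraries against 354.77 and 296.72 in flox libraries. It was also longer in KO libraries, with 1163 and 1229 bp against 992 and 1087 bp in flox libraries. A further 4 regions were called in 1 KO library each, while one region, chr8:82384225-82384957, had peaks of both flox libraries and of no KO library. For peaks scored 100 or more the difference was 0.09.

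Il25 encodes the type 2 cytokine also called IL-17E. Its interval held 2082 and 2176 bp in KO libraries against 1804 and 1540 bp in flox libraries, a log2 difference of 0.29 (SE 0.25). The region called in both KO libraries only, chr14:54931675-54932614, lay just outside the gene, with scores of 62.68 and 68.30. The sign was not kept: the difference was -0.15 with peaks scored 100 or more, -0.13 with the 50000 highest scored peaks, and -0.31 with 20 kb at both ends. Il34, which encodes a ligand of the CSF-1 receptor of macrophages, had 7101 and 4763 bp in KO libraries against 5657 and 3899 bp in flox libraries, with overlap. It carried a flox-only region, chr8:110759199-110760065, with scores of 62.61 and 62.31, beside 3 regions called in all 4 libraries. Il16 had 6923 and 7787 bp in KO libraries against 7588 and 6280 bp in flox libraries, also with overlap.

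Among the 38 receptor genes, 31 were tested, with 18 lower and 13 higher in KO libraries by sign and a median difference of -0.06. The IL-1 family receptors and decoys had a median of -0.31. Of its 10 genes 9 were tested, and 6 (66.7%) were lower by sign, where 54.6% of all tested genes were. Both KO libraries were below both flox libraries for 5 (Il1rl1, Il1rl2, Il18r1, Il18rap and Il1rapl2) and above for none. Of all tested genes, 20.7% and 14.6% had these orders. All of the 5 but Il1rapl2 are neighbours in the same locus, and Il1rl1 and Il18r1 share peaks, so they are not separate instances. Type I cytokine receptor chains split evenly, with 7 of 14 lower and a median of -0.01, and IL-10 family receptor chains had 4 of 6 lower and a median of -0.03.

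Il1rl1 encodes ST2, the IL-33 receptor, which mast cells, basophils and type 2 lymphoid cells carry. Its called length was 4156 and 2913 bp in KO libraries against 7936 and 6404 bp in flox libraries, in 4 and 5 peaks against 11 and 8. Both KO libraries were well below both flox libraries, and the log2 difference was -0.92 (SE 0.23, adjusted p = 0.773 with limma). The spread between libraries of a group was smaller than the gap between groups, yet the adjusted p was far from the threshold. Without one library the difference stayed between -1.15 and -0.70.

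The strongest region that touches the interval, chr1:40470181-40471883, lies in the neighbouring Il18r1 and mostly outside the interval of Il1rl1. As a whole it was called in all 4 libraries, with scores of 338.10 and 532.37 in KO libraries against 301.05 and 350.85 in flox libraries. These scores do not describe the called length of Il1rl1. Inside Il1rl1, 2 regions had peaks of both flox libraries and of no KO library. These were chr1:40407240-40408291, with scores of 59.70 and 64.95, and chr1:40419366-40419888, with scores of 79.30 and 99.97. A further 3 regions inside the gene were called in 1 flox library each, with scores of 63.16 to 76.32. The difference was -0.32 for peaks scored 100 or more, and with the 50000 highest scored peaks it was 0.54.

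Il1rl1 belongs to the IL-1 receptor locus, which runs from Il1r2 to Il18rap over 477.0 kb of chromosome 1. Peaks covered 38606 and 38444 bp of it in KO libraries, against 47899 and 39900 bp in flox libraries, where flox library 1 stood apart. Il1r1, the signalling receptor of IL-1, had the most called length of the 79 genes. Its 13300 and 16210 bp in KO libraries overlapped the 16257 and 12907 bp in flox libraries, and the log2 difference was 0.03 (SE 0.16). Il1r2, the decoy, had 5296 and 3052 bp in KO libraries against 3500 and 3518 bp in flox libraries, with overlap.

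The neighbours of Il1rl1 had smaller gaps. Il1rl2, the IL-36 receptor gene, had 2893 and 4928 bp in KO libraries against 5948 and 4946 bp in flox libraries, so KO library 2 and flox library 2 were nearly equal. The log2 difference of -0.45 (SE 0.27) was -0.12 without KO library 1. Its flox-only region was chr1:40360225-40361257, with scores of 94.35 and 61.75. Il18r1 had 4461 and 5034 bp in KO libraries against 6587 and 5557 bp in flox libraries, a log2 difference of -0.31 (SE 0.18), and shares peaks with Il1rl1. Il18rap, the accessory IL-18 receptor chain, had 1782 and 1952 bp in KO libraries against 2305 and 2520 bp in flox libraries.

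The widest region called in all 4 libraries in any of the 79 intervals lay inside Il1r1, chr1:40282777-40286108, with 3332 bp. Its scores were 524.76 and 348.67 in KO libraries against 223.28 and 171.43 in flox libraries. The highest scores stood in Il31ra, a receptor chain for the itch cytokine IL-31, at chr13:112538467-112541005. They were 765.14 and 892.14 in KO libraries against 756.50 and 894.86 in flox libraries, and the groups overlapped. These are the authors' values within each list and depend on its depth, so they describe the regions and do not measure a difference.

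**Figure D3:**
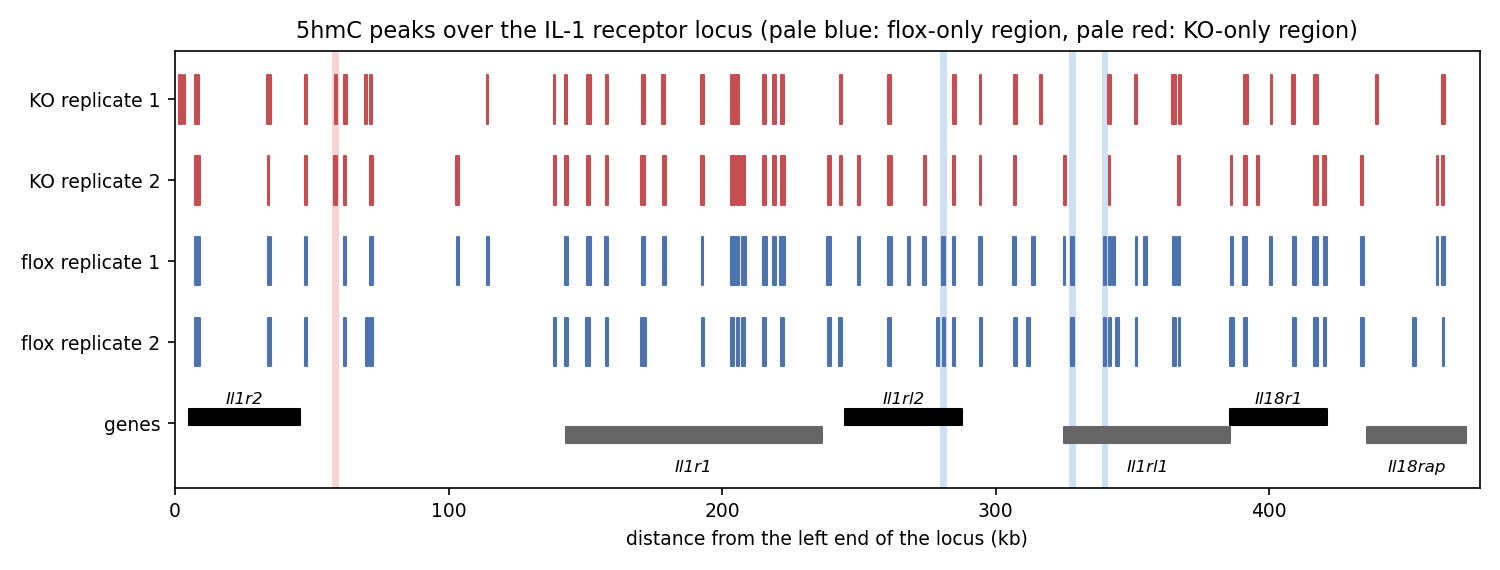
Peaks of each library (KO above flox) are drawn to scale along the IL-1 receptor locus, 477.0 kb on the horizontal axis in kb from its left end, with gene spans below. The 3 pale blue bands are flox-only regions, 1 in Il1rl2 and 2 in Il1rl1, and the pale red band is a KO-only region that lies outside every gene interval.

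Il1rapl2 and Il1rapl1 are very long genes of the X chromosome with sparse peaks. Il1rapl2 had 2820 and 2375 bp in KO libraries against 5025 and 4354 bp in flox libraries, from 3 and 3 peaks against 6 and 6. The groups did not overlap, with a log2 difference of -0.73 (SE 0.21, adjusted p = 0.773 with limma). The 2 regions called in every library were joined by 2 called in 3 libraries and by 4 called in 1 flox library each, with scores up to 142.63. Its difference was -0.64 with peaks scored 100 or more and -0.61 with the 50000 highest scored peaks. Il1rapl1 had 6677 and 3508 bp in KO libraries against 6202 and 8358 bp in flox libraries, so KO library 1 lay between the flox libraries.

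Among receptor chains of type I cytokines, Il27ra, which encodes the IL-27 binding chain, had 2065 and 3930 bp in KO libraries against 4476 and 4024 bp in flox libraries. KO library 1 was far below the rest, and without it the log2 difference of -0.48 (SE 0.30) was -0.09. Its 4 regions all lay beside the gene, and the flox-only one, chr8:84043373-84044439 with scores of 71.91 and 58.60, overlaps Rln3. It turned to 0.14 for peaks scored 100 or more, and with the 50000 highest scored peaks 0.18. Il4ra, the IL-4 and IL-13 receptor chain, had 3692 and 3416 bp in KO libraries against 3339 and 6090 bp in flox libraries, where flox library 2 stood apart. It held the flox-only region chr7:125557053-125558261, with scores of 50.39 and 66.93, near the lowest score of the lists.

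The IL-2 receptor chains showed no order between the genotypes. Il2ra, the alpha chain of activated T cells, had 6440 and 6467 bp in KO libraries against 4784 and 7567 bp in flox libraries. Il2rb, the beta chain shared with IL-15, had 5188 and 6324 bp in KO libraries against 5595 and 4374 bp in flox libraries. The groups overlapped in both genes. Il12rb2, a chain of the IL-12 receptor, had 5679 and 3939 bp in KO libraries against 4108 and 5469 bp in flox libraries, again with overlap.

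Of the 6 receptor chain genes of the IL-10 family, Il22ra1 and Il20rb were the most densely covered. Il22ra1, which binds IL-22 on epithelia, had 6378 and 5675 bp in KO libraries against 6043 and 6208 bp in flox libraries, a log2 difference of -0.01 (SE 0.17). Il20rb had 7067 and 5727 bp in KO libraries against 7421 and 6307 bp in flox libraries, a difference of -0.08 (SE 0.18). Both overlapped between groups. Il10rb, the IL-10 receptor beta chain, had 1318 and 1236 bp in KO libraries against 1142 and 1084 bp in flox libraries. It was the one gene of this list with both KO libraries above both flox libraries, with a difference of 0.15 (SE 0.27). In Il10ra, the IL-10 binding chain, values were 2764 and 1484 bp in KO libraries against 3297 and 1733 bp in flox libraries, with the spread within each group larger than the gap between them. Of the IL-17 receptors, Il17ra, the chain common to the family, had 3411 and 3385 bp in KO libraries against 4286 and 3913 bp in flox libraries, without overlap and with a difference of -0.23 (SE 0.19).

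**Figure D4:**
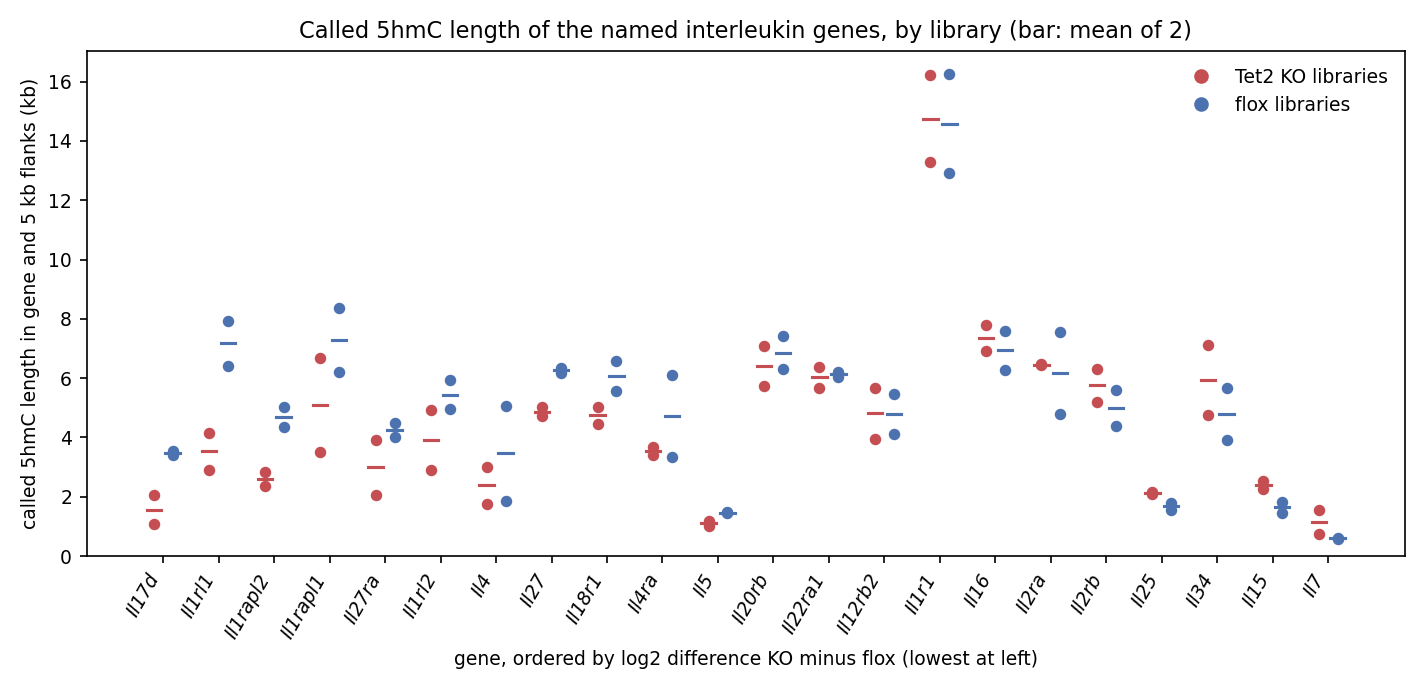
Called 5hmC length in kb is plotted for each library of 22 named genes, KO left of flox, with bars for the mean of 2 libraries, ordered by log2 difference. At the left, Il17d, Il1rl1 and Il1rapl2 have both KO points below both flox points, while the points of Il1r1, which has the most called length, overlap.

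Merging overlapping peaks of the 4 lists gave 279 regions in the 79 intervals. All 4 libraries had called 108 of them (38.7%, against 39.5% of the 174070 regions of the genome), 50 were called in 3 libraries, and 22 (7.89%, against 11.2% of the genome) in 1 KO and 1 flox library. A KO-only region, called in both KO libraries and neither flox library, occurred 2 times (0.717%), where 3.00% of regions of the genome and 2.74% of those in gene intervals had this pattern. A flox-only region occurred 10 times (3.58%), where 2.96% of regions of the genome and 3.21% of those in gene intervals had it. For peaks scored 100 or more the counts were 8 KO-only and 4 flox-only, the opposite order, and with the 50000 highest scored peaks 6 and 3. Shares over the genome at these settings are not given here, so this order is not read as a trait of these genes. The scores of the 12 genotype-only regions lay between 50.39 and 110.31, and the median of the region means was 68.80. In regions called in all 4 libraries scores ran from 51.32 to 894.86, and the median of the region means was 130.4. The 2 ranges of scores overlap.

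A single library had called 87 regions. Of these, 16 and 13 came from KO libraries 1 and 2, against 27 and 31 from flox libraries 1 and 2. In the genome the same counts were 10826 and 12825 in KO libraries, against 11546 and 12288 in flox libraries, so there the groups overlapped. Of the 279 regions, 16 lay at least partly in another protein-coding gene, and 30 of the 79 intervals touched one. In the other 49 genes, 25 of the 38 tested were lower in KO libraries by sign, with a median difference of -0.12. In the 30 genes whose intervals touched one, 12 of the 24 tested were lower, with a median of 7.8e-05. Yet both KO libraries were below both flox libraries for 33.3% of these 24, against 23.7% of the 38.

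Genes that act downstream of interleukin receptors were taken from a list of kinases, adaptors and STAT factors. Of its 20 genes 18 were tested, and 14 (77.8%) were lower and 4 higher by sign, where 54.6% of all tested genes were lower. Both KO libraries were below both flox libraries for 6 (33.3%) and above for none, where 20.7% and 14.6% of all tested genes were. The intervals of Stat5a and Stat5b, both among the 6, overlap, and that of Stat5a also overlaps the interval of Stat3. The genes of this list are therefore not all separate instances. None of the 18 had an adjusted p under 0.05 with limma. Jak1, a kinase of most type I and IL-10 family receptors, had 3722 and 4300 bp in KO libraries against 7123 and 7461 bp in flox libraries, a log2 difference of -0.78 (SE 0.17). Jak2, the kinase of the IL-3 and IL-5 receptors, had 569 and 0 bp in KO libraries against 1733 and 1750 bp in flox libraries, a difference of -1.61 (SE 0.50). Stat5b, a STAT factor of IL-2 and IL-3 signalling, had 4995 and 4508 bp in KO libraries against 7538 and 6330 bp in flox libraries, a difference of -0.49 (SE 0.18). The groups did not overlap for these 3 genes.

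In a second list, 10 receptor chains shared with other cytokines or left out of the symbol rule, 8 of 9 tested genes (88.9%) were lower. Of all tested genes, 54.6% were lower by sign. Il3ra, the IL-3 receptor alpha chain, had 4092 and 4240 bp in KO libraries against 5997 and 6853 bp in flox libraries, a difference of -0.55 (SE 0.18, limma adjusted p = 0.773). The ligand gene Il3 had a peak in 1 flox library, whereas the genes of its receptor alpha chain and kinase had peaks in every flox library. Il3ra also had peaks in both KO libraries, and Jak2 in KO library 1.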

How the data were processed

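5hmC immunoprecipitation libraries of 2 KO and 2 flox samples were used, grouped and numbered by their titles. The other 2 samples of the series, IgG and input, were not used here. CASAVA 1.8, Bowtie, MACS 1.4 and build GRCm38 (mm10) appear in the submitters' processing notes, without roles. For settings, the peak caller's control library and depth, nothing is given in the sources used here. Per the labels, the libraries had 14 PCR cycles and ran in lane 3.

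Each file deposited by the authors lists the peaks of 1 library by position, with a score and a p-value. The deposited score matched -10 times log10 of that p-value within 0.02, except for 1 peak. More depth can add weak peaks.

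Called length (bases under peaks) was summed over RefSeq gene spans with 5 kb at both ends, scaled to an equal sum per library, and log2(bp + 500) was fitted in R 4.3.3 with limma 3.58.1 (trend and robust options) over genes whose mean reached 500 bp. Benjamini-Hochberg adjustment ran over all genes tested, with 0.05 as threshold. Differences on this scale are understated where called length is small. The fit was also tested on simulated data. Regions are peaks merged at 1 bp of overlap. Neighbouring genes within 200 kb form a locus, and its called length includes the sequence between the genes. Coordinates count from 1 on GRCm38. Gene spans carry no strand or exons, so upstream and downstream are named only where a RefSeq promoter gives the strand. Promoter windows were matched by symbol; Il10, Il10ra, Il10rb, Il12rb1, Il15, Il17b, Il17ra, Il1f6, Il22ra2, Il23a, Il24, Il25, Il27, Il27ra, Il2rb, Il34 and Il7 had no entry. Python 3.11.15, pandas 2.3.3, numpy 2.4.6 and matplotlib 3.10.9 were used.

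The genes, lists and named-gene rule were chosen with earlier results of these data known. Values by library were given for genes among the 12 with most called length, with an unadjusted p under 0.05, with a genotype-only region, or among the 6 densest, and for Il3 and Il6. Other genes served as examples of their family. Of the signalling, receptor chain and marker genes, those with an unadjusted p under 0.05 were named, at most 4 a list, in the signalling and receptor chain lists. Alternatives were other peak sets, intervals, scaling, pseudocounts, filters, the number of peaks, limma without trend and robust options, leaving out each library, and the replicate number as a block.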

Additional observations from a re-analysis of the deposited data

How the results depend on the processing

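No gene passed the threshold under any alternative for called length. By number of peaks, 700 of the 14162 tested genes passed, 406 lower and 294 higher in KO libraries. All 700 had equal peak numbers within KO and within flox libraries, so the zero spread makes the call. The 700 include 5 of the 62 tested interleukin and receptor genes (Il20, Il5 and Il1rapl2 lower in KO libraries, Il25 and Il15 higher). The median difference of these 62 genes was then 0. With peaks of a score of at least 100, with the 50000 highest scored peaks and with gene bodies alone, 22 of 45, 20 of 42 and 23 of 47 genes were lower in KO libraries, with median differences of 0.036, 0.043 and 0.0041. The log2 ratio of summed called length was -0.0099 with the first and 0.011 with the second of these peak sets. KO-only regions numbered 8, 6 and 1 under these settings and 9 with 20 kb at both ends. Flox-only regions numbered 4 and 3 with the stricter peak sets, 8 within gene bodies alone and 17 with 20 kb. Shares over the genome under these settings are not given here, so the counts only describe the regions. Among genes whose groups do not overlap, signs turned for Il25 (-0.15 with a score of at least 100, -0.13 with the 50000 highest, -0.31 with 20 kb), Il17d (0.31 and 0.33), Il27ra (0.14 and 0.18), Il1rl1 (0.54 with the 50000 highest) and Il5 (0.11 with 20 kb). The cause was not tested.

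Leaving out each library in turn, in fits that assume the lone library varies like the others, gave 0 genes past the threshold, 32 to 39 genes lower in KO libraries, medians of -0.16 to -0.032 and log2 ratios of the sums of -0.18 to -0.08. With the replicate number as a block, 0 genes passed and 37 of the 62 were lower in KO libraries. Deviations of same-numbered libraries correlated at 0.00649 over 14162 genes, which shows no pairing in called length; whether they share a culture or day is not given in the labels. Restricting the list to genes whose interval holds no other protein-coding gene, an alternative chosen after seeing the data, gave 25 of 38 lower and a median of -0.12. The remaining genes gave 12 of 24 lower and a median of 7.8e-05. Of 342 values of 22 named genes under alternatives, 32 had the opposite sign. These were the 9 above, in 5 genes whose groups do not overlap, and 23 in 9 genes whose groups overlap (Il1r1, Il2ra, Il2rb, Il4, Il4ra, Il12rb2, Il16, Il20rb and Il22ra1). Depth is unknown, peaks near the lowest score of 50 are the least certain, and 2 libraries a group limit precision.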
